A study of Mus musculus with 15 samples.

Results

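The transcripts described here are those of the Regnase and Roquin families of mRNA decay factors and of the related N4bp1, 7 of the 25239 genes in the deposited tables, chosen by gene symbol. They are Zc3h12a, Zc3h12b, Zc3h12c and Zc3h12d (Regnase-1 to Regnase-4), Rc3h1 and Rc3h2 (Roquin-1 and Roquin-2) and N4bp1, and all 7 passed the filter on low counts. They were measured by RNA immunoprecipitation sequencing (RIP-seq) in ST2, a mouse stromal cell line from bone marrow. The design asked which transcripts Arid5a, an RNA-binding protein, is bound to.

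The 15 libraries formed 4 groups. RNA was precipitated with an Arid5a antibody from cells given IL-17 (n = 4) or medium (n = 4), and with mouse IgG2b, the control antibody, from cells given IL-17 (n = 3, numbered 2 to 4) or medium (n = 4). IL-17 was used at 200 ng/mL for 3 h, and the cells of all groups were then trypsinised and fixed in 1% formaldehyde. All groups were of the same line, and the labels name no genetic change in it. No library of unprecipitated RNA was analysed here, so that a change of a transcript's level in the cells and a change of the share of it that was precipitated cannot be told apart. The labels do not say whether libraries of a group came from separate cultures, so p-values measure only the spread between these libraries. Of 10 stromal markers, 7 had over 10 counts in every library, while 0 of 6 T cell, 0 of 4 B cell and 0 of 6 myeloid markers did.

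The summed levels of these other cell types' markers are given without a test. T cell markers summed to 4.557 to 13.59 CPM with IL-17 and 20.2 to 27.1 CPM in medium in the Arid5a RIP, which did not overlap, and to 15.63 to 21.71 and 7.862 to 20.5 CPM in the IgG RIP. Myeloid markers summed to 6.289 to 11.49 CPM with IL-17 and 14.75 to 20.85 CPM in medium in the Arid5a RIP, and to 7.281 to 9.092 and 12.35 to 18.89 CPM in the IgG RIP, and overlapped in neither. B cell markers summed to 3.829 to 10.48 and 5.438 to 11.44 CPM in the Arid5a RIP, and to 1.436 to 4.903 and 5.616 to 15.69 CPM in the IgG RIP. Cd8a, a T cell co-receptor gene, was called lower with IL-17 in the Arid5a RIP, at -1.88 ± 0.56 (adjusted p = 0.0388 by edgeR). Of all tested genes 0.813% were called lower there. Cd8a had 7 to 16 counts per library with IL-17 and 17 to 47 in medium in that RIP. Its mean lay the other way in the IgG RIP, at 7.95 ± 3.41 CPM with IL-17 and 3.81 ± 1.23 CPM in medium. The part of these markers in the results was not tested.

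Regnase-1 is an endoribonuclease that cuts mRNAs of inflammatory genes at stem-loops in their 3′ ends, working with the helicase UPF1 on mRNAs under translation. Roquin proteins bind an overlapping set of stem-loops and bring in the CCR4-NOT deadenylase and the decapping machinery. Arid5a is known to bind some of the same mRNAs and to protect them from Regnase-1, and IL-17 is known to signal through kinases that inactivate Regnase-1 protein. The transcripts of these factors, not their proteins or activities, were measured here.

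After IL-17, Zc3h12a was 6.9-fold higher in the Arid5a RIP and 3.36-fold higher in the IgG RIP than in medium. Rc3h1 was 1.85-fold and 1.65-fold higher. Rc3h2 was 1.57-fold higher in the Arid5a RIP, a call that held in 16 of 30 fits. It was 1.35-fold higher in the IgG RIP and was not called there. The other 4 members were not called in either RIP. Of all tested genes 5.65% were called with IL-17 in the Arid5a RIP and 0.493% in the IgG RIP. No member was called between the Arid5a and the IgG RIP under either condition. Few genes of any kind were called there, 0.0673% of all tested genes after IL-17 and 0.628% in medium.

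The bases upstream of the start sites of Zc3h12a and Rc3h1 are shown because these members were called with IL-17 in both RIPs. Each run covers the 250 bases before the annotated start, read 5′ to 3′ on the strand of the gene, from RefSeq on GRCm38.p6, the assembly that the name mm10 stands for. Capitals mark each GC box (GGGCGG on either strand). Zc3h12a lies on the minus strand at chr4:125127882-125128131 and Rc3h1 on the plus strand at chr1:160906161-160906410.
Zc3h12a: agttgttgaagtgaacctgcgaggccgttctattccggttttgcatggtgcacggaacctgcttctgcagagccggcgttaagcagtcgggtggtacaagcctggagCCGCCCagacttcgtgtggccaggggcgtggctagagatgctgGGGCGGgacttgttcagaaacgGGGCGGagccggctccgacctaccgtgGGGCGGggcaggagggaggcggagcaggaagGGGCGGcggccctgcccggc
Rc3h1: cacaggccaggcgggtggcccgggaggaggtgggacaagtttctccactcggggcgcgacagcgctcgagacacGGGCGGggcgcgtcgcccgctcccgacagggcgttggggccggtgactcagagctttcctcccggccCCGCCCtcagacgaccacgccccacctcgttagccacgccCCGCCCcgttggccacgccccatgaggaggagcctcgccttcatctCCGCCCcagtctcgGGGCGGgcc
Both windows held 5 GC boxes, while 32.7% of the 32851 windows of this length held at least 1 and 1.93% at least 5. The windows of Rc3h2, N4bp1, Zc3h12b and Zc3h12d held 0, 2, 0 and 1, and the 2 windows of Zc3h12c, one per annotated start, held 1 and 0. The 2 printed windows lie outside the gene spans given below. Those of Rc3h2 and Zc3h12c lie within their gene spans, and those of N4bp1, Zc3h12b and Zc3h12d run partly into theirs. The Rc3h1 window also held 1 match to the AP-1 motif (TGANTCA, either strand), found in 6.75% of all windows, and the Zc3h12a window held 0. Neither of the 2 printed windows had a match to the C/EBP motif (TTGCNNAA, found in 9.56% of windows), to the NF-kB consensus (7.25%) or to TGACG (17.8%). Among the other members the NF-kB consensus matched in the first Zc3h12c window, the C/EBP motif in the Rc3h2 window and the second Zc3h12c window, and TGACG in the Zc3h12b window and that second Zc3h12c window. Such a match is a description of letters, and no binding was measured here.

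Zc3h12a encodes Regnase-1, the best-studied endoribonuclease of the family, and its gene spans chr4:125118414-125127881 with no other gene model over it. After scaling with TMM factors, it was at 70.9, 61.8, 56.1 and 43.9 CPM (counts scaled to the library total) in Arid5a RIP libraries 1 to 4 with IL-17, against 7.82, 10.3, 9.34 and 6.47 CPM in Arid5a RIP libraries in medium. The lowest library with IL-17 was thus far above the highest in medium. IgG RIP libraries 2 to 4 with IL-17 held 45, 53.6 and 55.5 CPM, against 16.3, 21.3, 13.7 and 11.9 CPM in medium libraries 1 to 4. Here too the groups did not overlap.

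The log2 fold of Zc3h12a with IL-17 was 2.79 ± 0.26 (SE) in the Arid5a RIP, with a 95% interval of 2.26 to 3.32 and an adjusted p of 2.34e-09 by edgeR. The IgG RIP gave 1.75 ± 0.27, with an interval of 1.20 to 2.29 and an adjusted p of 0.000337. Zc3h12a was the 7th of the 17835 tested genes by p in both comparisons. It was called in each of the 30 fits made for either comparison, with log2 folds of 2.28 to 2.89 in the Arid5a RIP and 1.62 to 1.86 in the IgG RIP.

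**Figure D1:**
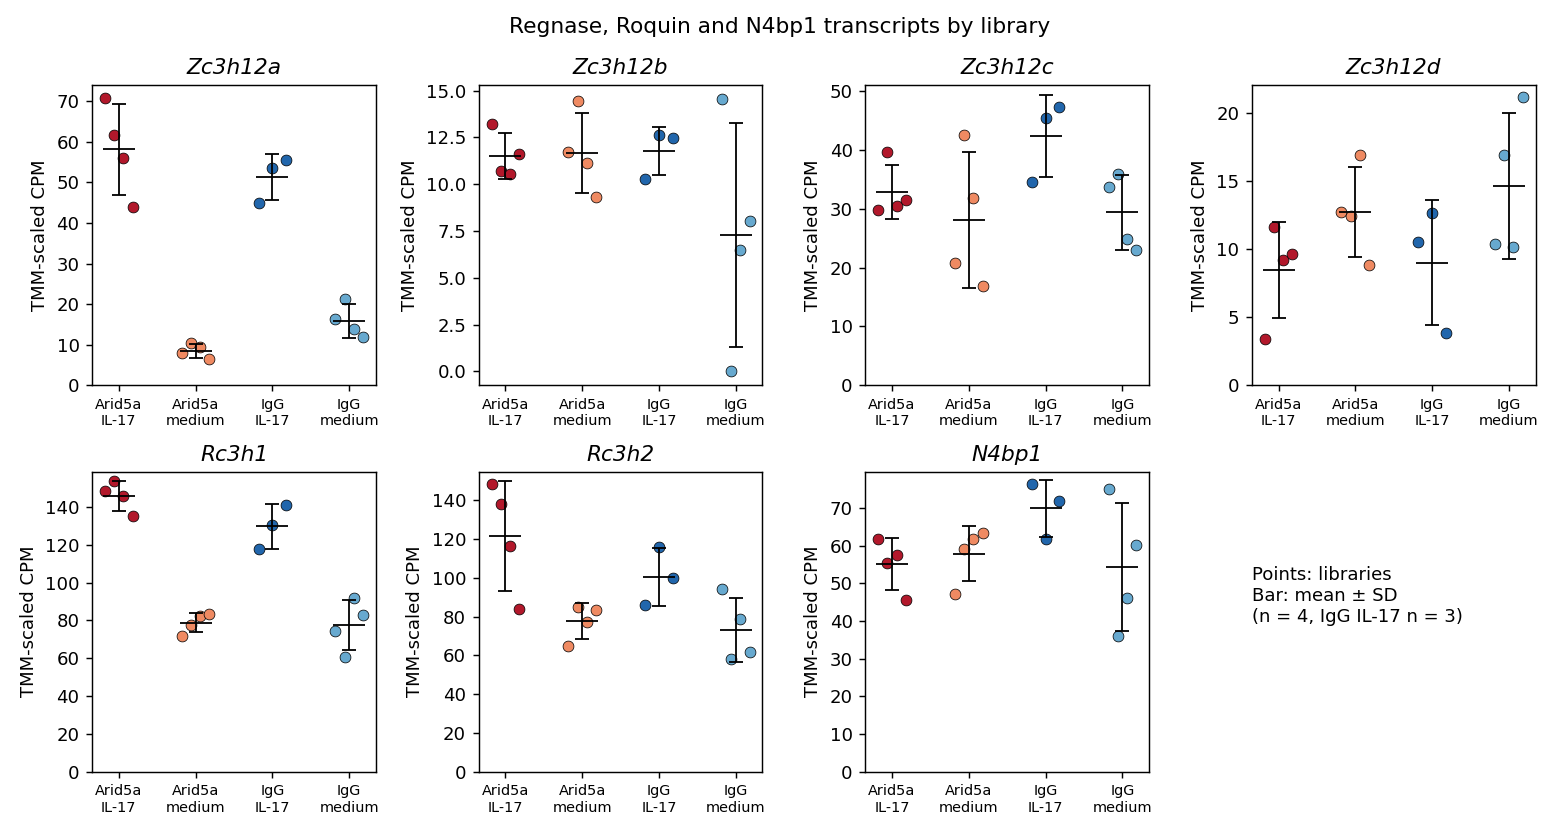
TMM-scaled CPM of the 7 members in the 15 libraries, 1 panel per gene with its own axis; each point is a library, and bars give the group mean ± SD. Zc3h12a stands at 43.9 to 70.9 CPM in the Arid5a RIP with IL-17 and at 6.47 to 10.3 CPM in medium, while N4bp1 and the other Regnase genes overlap between these groups.

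Rc3h1 encodes Roquin-1, which recognises stem-loops in target mRNAs and recruits deadenylases, and spans chr1:160906411-160974976. It was at 149, 154, 146 and 135 CPM in Arid5a RIP libraries 1 to 4 with IL-17, against 72, 77.7, 82.5 and 83.4 CPM in medium. With the control antibody it was at 118, 131 and 141 CPM in libraries 2 to 4 with IL-17, against 74.4, 60.7, 92.1 and 82.9 CPM in medium. All libraries with IL-17 were above all libraries in medium for either antibody. The log2 fold was 0.89 ± 0.15 in the Arid5a RIP (adjusted p = 0.000307) and 0.72 ± 0.17 in the IgG RIP (adjusted p = 0.031).

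The calls of Rc3h1 were less stable than those of Zc3h12a, with 26 of 30 fits in the Arid5a RIP and 17 of 30 in the IgG RIP. The fold in the IgG RIP stayed between 0.58 and 0.81 in all 30 fits. Leaving out Arid5a IL-17 replicate 1 or 3, any of the 3 IgG IL-17 libraries or IgG medium replicate 2 ended that call, with adjusted p from 0.0505 to 0.113 and folds from 0.65 to 0.79.

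Rc3h2 encodes Roquin-2, a paralogue with overlapping targets, and spans chr2:37368861-37424370. It was at 148, 138, 117 and 84.1 CPM in Arid5a RIP libraries 1 to 4 with IL-17, against 64.8, 85.1, 77.1 and 83.6 CPM in medium. Replicate 4 with IL-17 lay within the range of the medium group, so the groups overlapped. IgG RIP libraries 2 to 4 held 85.9, 116 and 100 CPM with IL-17, against 94, 58.4, 78.7 and 61.8 CPM in medium libraries 1 to 4, and the groups overlapped as well. The log2 fold was 0.65 ± 0.18 in the Arid5a RIP (adjusted p = 0.0268) and 0.43 ± 0.20 in the IgG RIP (unadjusted p = 0.0354, adjusted p = 0.407).

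The Rc3h2 call held in 16 of 30 fits. Each single removal of Arid5a IL-17 replicate 1, 2 or 3, or of any Arid5a medium library, ended it (adjusted p from 0.0531 to 0.162), at folds from 0.54 to 0.70. With TMM factors computed from 5394 well-expressed genes (average log2 CPM of at least 5) the fold was 0.33, with an adjusted p of 0.234. The Rc3h2 and Rc3h1 folds with IL-17 in the Arid5a RIP stand beside a median log2 fold of 0.30 over these well-expressed genes and of -0.12 over all tested genes, and the median was -0.04 and 0.00 in the IgG RIP. With the well-expressed factors Zc3h12a stood at 2.47 (adjusted p = 1.25e-07) and Rc3h1 at 0.58 (adjusted p = 0.023) in the Arid5a RIP, and Rc3h1 at 0.76 (adjusted p = 0.00744) in the IgG RIP.

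N4bp1 encodes an RNA-binding protein with a nuclease domain related to that of the Regnases, known as a restraint on NF-kB signalling, and spans chr8:86841136-86885296. It was at 61.8, 55.4, 57.6 and 45.6 CPM in Arid5a RIP libraries 1 to 4 with IL-17, against 47.2, 59.1, 61.7 and 63.5 CPM in medium. For IgG it was at 76.5, 61.6 and 71.8 CPM in libraries 2 to 4 with IL-17, against 75, 35.9, 46.2 and 60.2 CPM in medium. The groups overlapped for both antibodies. The log2 folds were -0.07 ± 0.20 (95% interval -0.47 to 0.33) in the Arid5a RIP and 0.33 ± 0.21 (-0.11 to 0.76) in the IgG RIP, and neither was called.

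Zc3h12c encodes Regnase-3, known mainly from macrophages and dendritic cells (chr9:52109569-52168730). It averaged 32.8 ± 4.6 CPM (SD, n = 4) with IL-17 and 28 ± 11.6 CPM (n = 4) in medium in the Arid5a RIP, a log2 fold of 0.24 ± 0.26. With IgG it averaged 42.5 ± 6.98 CPM (n = 3) after IL-17 and 29.4 ± 6.38 CPM (n = 4) in medium, a fold of 0.54 ± 0.28 with an adjusted p of 0.48. Neither difference passed the test. The interval in the IgG RIP (-0.03 to 1.11) holds the 0.72 of Rc3h1 there, while that in the Arid5a RIP (-0.28 to 0.76) ends below its 0.89.

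Zc3h12d encodes Regnase-4, known as a regulator in lymphocytes (chr10:7832323-7870397), and Zc3h12b encodes Regnase-2, the least studied of the family. Zc3h12d had 8 to 66 counts per library and Zc3h12b 0 to 66. Zc3h12d averaged 8.45 ± 3.56 CPM with IL-17 and 12.7 ± 3.3 CPM in medium in the Arid5a RIP, and 8.98 ± 4.58 CPM with IL-17 and 14.6 ± 5.35 CPM in medium in the IgG RIP. The folds of -0.59 ± 0.44 and -0.66 ± 0.49 were not called.

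Zc3h12b averaged 11.5 ± 1.22 CPM with IL-17 and 11.7 ± 2.13 CPM in medium in the Arid5a RIP, and 11.8 ± 1.3 CPM with IL-17 and 7.27 ± 5.98 CPM in medium in the IgG RIP. IgG medium replicate 2 held 0 Zc3h12b counts of 939139, which allows up to 3.37 CPM (3 counts, counting error only). The folds were -0.01 ± 0.45 and 0.54 ± 0.50. Zc3h12b (chrX:95711583-95932656) overlaps the model of Las1l, which had up to 946 counts in a library, and the authors' strand setting is not given in the sources used here, so that its counts are uncertain.

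In all, 3 of 7 members were called higher with IL-17 and 0 lower in the Arid5a RIP, where 5.65% of the 17835 tested genes were called (4.84% higher and 0.813% lower). In the IgG RIP 2 of 7 were higher and 0 lower, where 0.493% were called (0.258% higher and 0.235% lower). At an unadjusted p below 0.05 there were 3 members in the Arid5a RIP, beside 22.3% of all genes, and 3 in the IgG RIP, beside 11.1%. In either RIP, 2 members, Zc3h12a and Rc3h1, had every IL-17 library above every medium library. Among all tested genes 10.7% did so in the Arid5a RIP and 4.27% in the IgG RIP, while 9.25% and 3.32% lay wholly below. The median log2 fold of the members was 0.24 in the Arid5a RIP and 0.54 in the IgG RIP, and that of all tested genes -0.12 and 0.00. For the well-expressed genes it was 0.30 and -0.04. With upper-quartile factors, library totals and factors from well-expressed genes the members' median in the Arid5a RIP was 0.03, -0.02 and -0.07. All tested genes then had -0.31, -0.35 and -0.41. In the IgG RIP the members' median was then 0.57, 0.58 and 0.58, beside 0.05, 0.06 and 0.04.

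The number of genes called with IL-17 in the Arid5a RIP, 1008 by edgeR, moved with the scaling and the libraries. It was 321 with upper-quartile factors, 301 with library totals, 298 with factors from well-expressed genes (114 higher and 184 lower) and 36 with the receptor covariate. By DESeq2 it was 1367, and by voom with quality weights for libraries, named voom throughout, it was 7442. Leaving out 1 library gave 308 (without Arid5a IL-17 replicate 2) to 2257 (without Arid5a IL-17 replicate 4). In the IgG RIP, 88 genes were called by edgeR, 320 by DESeq2, 54 by voom, 16 with only the libraries compared and 257 without IgG medium replicate 1.

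**Figure D2:**
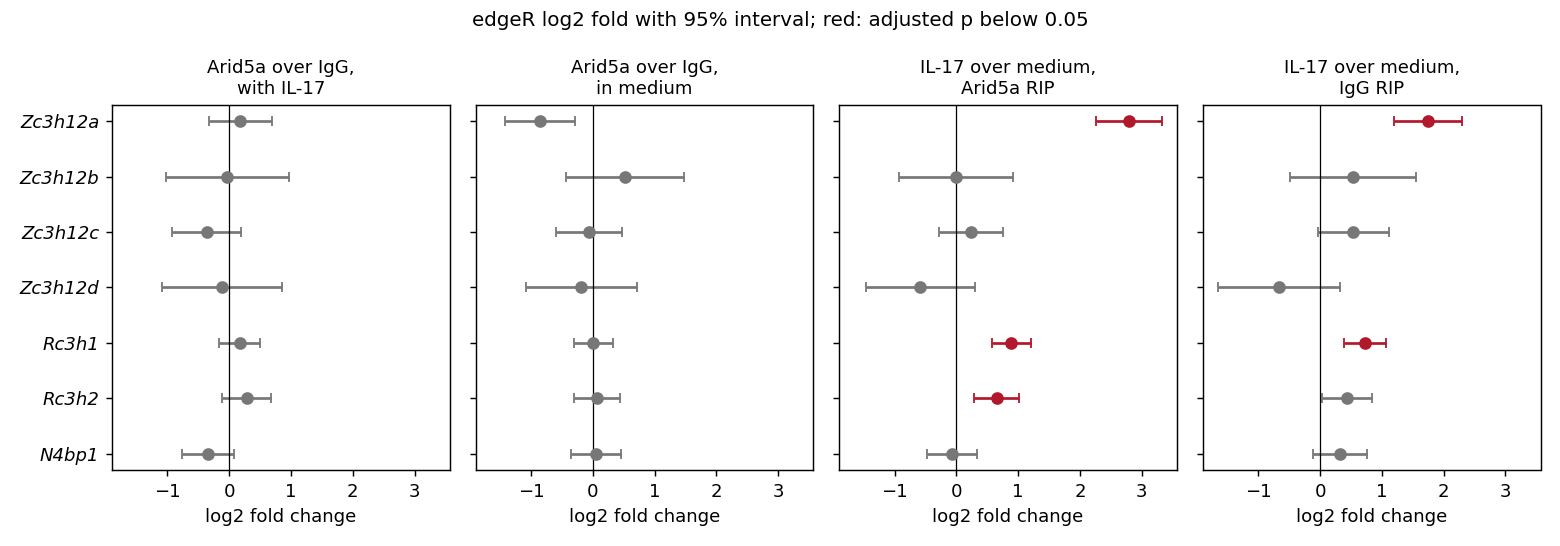
Log2 folds of the 7 members in the 4 comparisons of groups, with bars for the 95% interval of the edgeR fit, a line at 0 and called members in red. Zc3h12a and Rc3h1 lie to the right of 0 with IL-17 for both antibodies, and all intervals of Arid5a against IgG with IL-17 cross 0.

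The comparison of the Arid5a with the IgG RIP asks whether the antibody enriched these transcripts. After IL-17, edgeR called 0 of 7 members, and 0 had an unadjusted p below 0.05, with DESeq2 and voom also calling 0. Of all genes, 0.0673% were called (0.0561% higher, 0.0112% lower), which is 12 genes by edgeR beside 71 by DESeq2 and 479 by voom, and 8.95% passed an unadjusted p of 0.05. Zc3h12a averaged 58.1 ± 11.3 CPM over the 4 Arid5a libraries and 51.4 ± 5.61 CPM over the 3 IgG libraries, which gave a log2 fold of 0.18 ± 0.25 with an interval of -0.32 to 0.69. Rc3h1 averaged 146 ± 7.99 and 130 ± 11.8 CPM in the same order (0.17 ± 0.16) and Rc3h2 122 ± 28.4 and 101 ± 15 CPM (0.28 ± 0.20). N4bp1 stood at -0.34 ± 0.21, Zc3h12c at -0.36 ± 0.27, Zc3h12d at -0.12 ± 0.48 and Zc3h12b at -0.03 ± 0.49. No member had groups that did not overlap, whereas 5.3% of all genes lay wholly above and 4.39% wholly below.

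In medium, edgeR again called 0 of 7 members between the Arid5a and the IgG RIP, as did DESeq2 and voom. Of all genes, 0.628% were called (0.0561% higher and 0.572% lower). These 112 genes became 348 by DESeq2, 152 by voom, 4 with upper-quartile factors, 13 with library totals and 0 with factors from well-expressed genes. Without Arid5a medium replicate 2 or 3 or IgG medium replicate 3 the count was 0, without IgG medium replicate 2 it was 2, without Arid5a medium replicate 4 it was 5, and without IgG medium replicate 1 it was 350. Zc3h12a was the 1 member with an unadjusted p below 0.05, beside 12.8% of all genes. It averaged 8.49 ± 1.69 CPM in Arid5a libraries and 15.8 ± 4.12 CPM in IgG libraries (n = 4 each), a log2 fold of -0.86 ± 0.28 with an interval of -1.42 to -0.29 (unadjusted p = 0.00379, adjusted p = 0.155). Its highest Arid5a library, at 10.3 CPM, lay below the lowest IgG library, at 11.9 CPM. Such a separation was found for 4.05% of genes lying below and 5% lying above. The difference failed the test in all 30 fits, with adjusted p from 0.0975 upward.

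This Zc3h12a difference in medium rests on 24 to 31 counts per Arid5a library and 19 to 74 per IgG library. It stands beside a median of -0.19 for well-expressed genes, and with factors from those genes it was -0.67 (adjusted p = 0.357). The other members had folds of 0.01 ± 0.16 (Rc3h1), 0.06 ± 0.19 (Rc3h2), 0.05 ± 0.20 (N4bp1), -0.06 ± 0.27 (Zc3h12c), -0.19 ± 0.44 (Zc3h12d) and 0.52 ± 0.47 (Zc3h12b).

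Whether the antibody comparison itself differed between IL-17 and medium was tested as an interaction, which equals the difference between the IL-17 folds of the Arid5a and the IgG RIP. It called 0 of 7 members by edgeR, DESeq2 and voom, and 1, Zc3h12a, had an unadjusted p below 0.05. Of all genes 0.976% were called (0.869% higher, 0.107% lower), and 16.3% passed an unadjusted p of 0.05. That background of 174 genes was 405 by DESeq2, 1653 by voom and 0 with upper-quartile factors, library totals, factors from well-expressed genes or the receptor covariate, and ran from 0 without Arid5a IL-17 replicate 1 to 715 without Arid5a IL-17 replicate 4. For Zc3h12a it was 1.04 ± 0.37 with an interval of 0.28 to 1.80 (unadjusted p = 0.0083, adjusted p = 0.148), so its larger IL-17 fold in the Arid5a RIP did not pass the test. Over the other fits the adjusted p ran from 0.0673 to 0.98, and the median interaction of well-expressed genes was 0.34. Rc3h1 stood at 0.16 ± 0.23, Rc3h2 at 0.22 ± 0.27, N4bp1 at -0.40 ± 0.29, Zc3h12c at -0.30 ± 0.38, Zc3h12b at -0.55 ± 0.68 and Zc3h12d at 0.07 ± 0.65.

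Levels of different members were compared as FPKM, which is scaled to gene length. With IL-17 Zc3h12a had the highest FPKM of the 7, at 21.1 ± 2.97 in the Arid5a RIP (n = 4) and 19.8 ± 1.91 in the IgG RIP (n = 3). It exceeded the next member in all 4 and all 3 libraries, and the ranges did not overlap. In medium it was at 3.58 ± 0.851 FPKM in the Arid5a RIP, the 6th place, and at 5.87 ± 1.44 FPKM in the IgG RIP, the 4th place. These places were not distinct. Its range overlapped those of Zc3h12c (3.68 ± 1.69 FPKM) and Zc3h12d (3.58 ± 1.04 FPKM) in the Arid5a RIP, and those of Rc3h1 and Zc3h12d in the IgG RIP. Highest in medium were N4bp1 (10.1 ± 1.54 and 8.47 ± 2.92 FPKM in the Arid5a and IgG RIP) and Rc3h2 (9.71 ± 1.42 and 8.09 ± 1.83 FPKM), with ranges that overlapped.

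With IL-17, Rc3h2 and Rc3h1 followed Zc3h12a in the Arid5a RIP at 12.8 ± 2.24 and 12.6 ± 0.354 FPKM, and their ranges overlapped. With IgG, Rc3h1, Rc3h2 and N4bp1 stood at 12 ± 0.659, 11.5 ± 1.88 and 11.2 ± 1.26 FPKM, and each overlapped the next. Zc3h12c was below N4bp1 in every library with IL-17, at 3.67 ± 0.506 FPKM in the Arid5a RIP and 5.04 ± 0.704 FPKM in the IgG RIP. Zc3h12d and Zc3h12b closed the order in both and overlapped each other.

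**Figure D3:**
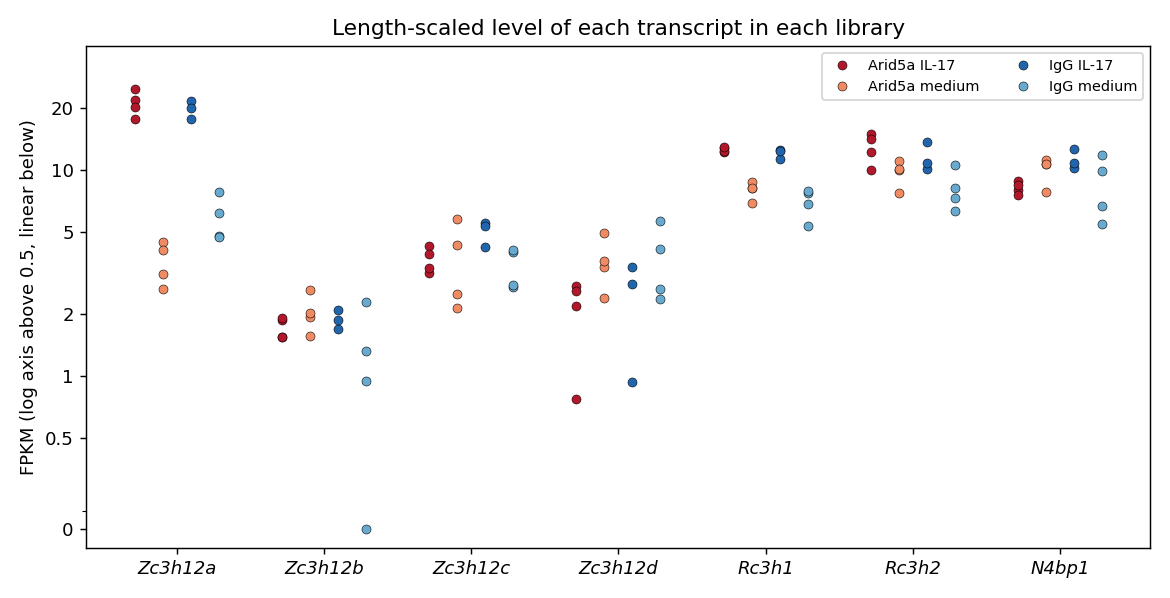
FPKM of the 7 members in each library, by group, on an axis that is logarithmic above 0.5 and linear below; each point is a library. Zc3h12a is the highest member in both groups with IL-17 (means of 21.1 and 19.8 FPKM) and lies among the low members in the Arid5a RIP in medium (3.58 FPKM).

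The low members were set against 1492 olfactory and vomeronasal receptor genes, which stromal cells are not known to use. The receptor genes had a median FPKM of 1.5 and 2.6 in the Arid5a RIP with IL-17 and in medium, and of 1.82 and 1.14 in the IgG RIP. Of these genes 43.4% and 62.5% had at least the FPKM of Zc3h12b in the Arid5a RIP with IL-17 and in medium, and 48.7% and 50.1% in the IgG RIP. For Zc3h12d the shares were 33.6%, 33.9%, 39.7% and 12.7% in the same order, and for Zc3h12c 10.5%, 32.4%, 9.58% and 15%. The levels of these 3 members thus overlapped those of the receptor genes in all 4 groups, to a differing degree.

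For Zc3h12a the share was 0% with IL-17 in both RIPs, and 33.9% and 3.69% in medium in the Arid5a and the IgG RIP. Its medium level in the Arid5a RIP therefore lay within the receptor range, and the IL-17 fold there is read against that level. Summed receptor counts were 1408 to 4062 CPM in the Arid5a RIP with IL-17 and 3234 to 4776 CPM in medium, and 2381 to 3371 and 1986 to 3090 CPM in the IgG RIP. With the receptor CPM as a covariate Zc3h12a was still called, while Rc3h1 in the Arid5a RIP was at 0.83 (adjusted p = 0.052) and Rc3h2 at 0.31 (adjusted p = 0.915).

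Ratios of the counts of 2 members within a library need no scaling between libraries. The Zc3h12a to Rc3h1 ratio had a median of 0.393 (0.325 to 0.477) in the Arid5a RIP with IL-17, against 0.111 (0.0776 to 0.133) in medium. The IgG RIP had 0.393 (0.383 to 0.41) with IL-17, against 0.184 (0.143 to 0.352) in medium. The groups with IL-17 and in medium did not overlap for either antibody, and with IL-17 the 2 antibodies overlapped. The Zc3h12a to N4bp1 ratio was 1.04 (0.963 to 1.15) with IL-17 and 0.158 (0.102 to 0.175) in medium in the Arid5a RIP, without overlap. In the IgG RIP it was 0.773 (0.588 to 0.869) and 0.257 (0.197 to 0.594), and these groups overlapped. The Rc3h1 to Rc3h2 ratio was 1.18 (1.0 to 1.61) with IL-17 and 1.03 (0.913 to 1.11) in medium in the Arid5a RIP, and 1.37 (1.13 to 1.41) and 1.1 (0.791 to 1.34) in the IgG RIP, with overlap in both. The Rc3h1 to N4bp1 ratio was 2.66 (2.4 to 2.96) with IL-17 and 1.33 (1.31 to 1.52) in medium in the Arid5a RIP, and did not overlap. For the IgG RIP it was 1.97 (1.54 to 2.12) and 1.53 (0.991 to 1.99), and overlapped.

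**Figure D4:**
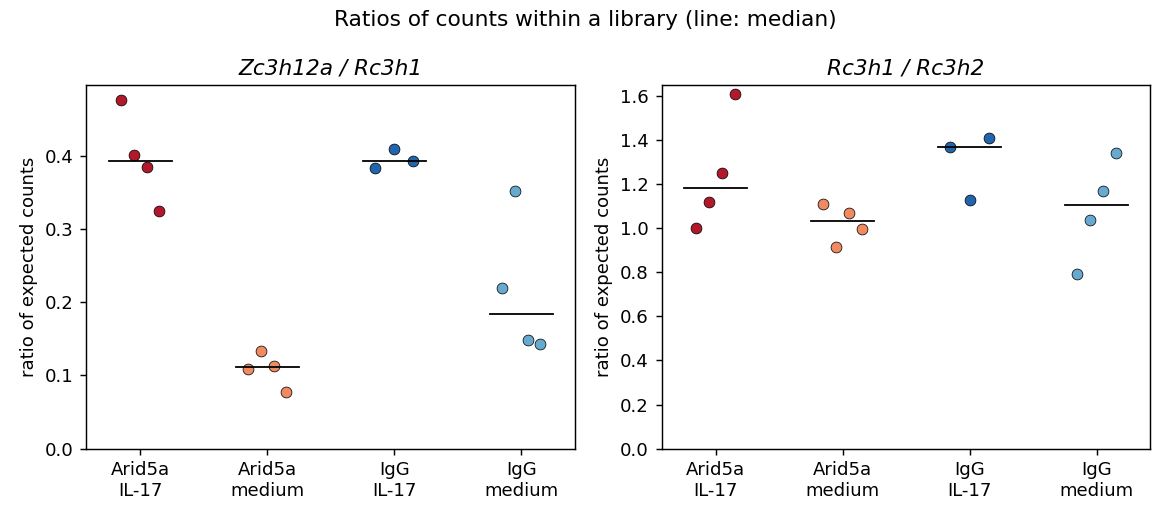
Ratios of expected counts of Zc3h12a to Rc3h1 (left) and of Rc3h1 to Rc3h2 (right) in each library, with a line at the group median. The left ratio has the same median of 0.393 with IL-17 for both antibodies and lies lower in medium (0.111 and 0.184), and the right ratio overlaps between IL-17 and medium for each antibody.

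Across the 15 libraries the log2 CPM of Zc3h12a had a Pearson r of 0.86 with Rc3h1 and 0.73 with Rc3h2, and Rc3h1 and Rc3h2 had one of 0.82. With N4bp1 the r of Zc3h12a was 0.15, and with Zc3h12d it was -0.52. Among 13740 other genes, those most like Zc3h12a were Slc20a1 (r = 0.968), a phosphate transporter gene, and the monocyte chemokine genes Ccl2 (0.966) and Ccl7 (0.962). Rc3h1 was most like Ccn4 (0.944), Micall2 (0.944) and Eprs (0.940), and Rc3h2 most like Selenof (0.961), Caprin1 (0.933) and Prr14l (0.928). The highest r was 0.864 for N4bp1 (Tbc1d13), 0.857 for Zc3h12c (Lurap1l), 0.863 for Zc3h12d (Irs3) and 0.983 for Zc3h12b (Pptc7), the last with the single library at 0 Zc3h12b counts in it. These are descriptions over libraries of 4 groups that share totals and scaling factors.

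The known partners of the members were read from a list of 16 genes, the UPF1 helicase and its kinase SMG1, the Roquin partner NUFIP2, the CCR4-NOT complex and decapping factors, all 16 tested. With IL-17 in the Arid5a RIP 2 were called higher and 0 lower, where 4.84% of all tested genes were called higher and 0.813% lower. Cnot1, the CCR4-NOT scaffold, averaged 267 ± 33.2 CPM with IL-17 and 194 ± 30.3 CPM in medium, a log2 fold of 0.46 ± 0.14 (adjusted p = 0.0384). Smg1 averaged 304 ± 33.1 and 226 ± 12.2 CPM, with 0.43 ± 0.13 (adjusted p = 0.0405). The list had a median of 0.36 beside -0.12 for all tested genes and 0.30 for well-expressed ones. With upper-quartile factors, library totals or factors from well-expressed genes 0 of the 16 were called. Cnot1 was called in 15 and Smg1 in 13 of 30 fits. In the other 4 comparisons edgeR called 0 of the 16, and between 1 and 3 had an unadjusted p below 0.05. Of all tested genes 0.0673% to 0.976% were called in these comparisons, and 8.95% to 16.3% had an unadjusted p below 0.05.

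The genes known to act on Regnase-1 or the pathway above it (13 listed and tested) include the IKK kinases, IRAK kinases, MALT1, TBK1 and the IL-17 receptor adaptor ACT1. With IL-17 in the Arid5a RIP 2 were called higher and 0 lower, where 4.84% of all tested genes were called higher and 0.813% lower. The list had a median of 0.24 beside -0.12 for all tested genes and 0.30 for well-expressed ones. Chuk, which encodes an IKK kinase, averaged 85.1 ± 14.2 CPM with IL-17 and 56 ± 10.6 CPM in medium, a log2 fold of 0.61 ± 0.18 (adjusted p = 0.042). Irak1, a kinase that phosphorylates Regnase-1 in Toll-like receptor signalling, averaged 57.8 ± 14.6 and 35.4 ± 2.29 CPM, with 0.71 ± 0.22 (adjusted p = 0.0442). Neither was called with upper-quartile factors, library totals or factors from well-expressed genes. The stricter filter, the replicate block, the 3 FPKM fits and the receptor covariate ended both calls as well. Chuk was called in 13 and Irak1 in 14 of 30 fits. In the IgG RIP the folds were -0.18 ± 0.20 and -0.34 ± 0.24. There edgeR called 0 of the 13, with 0 at an unadjusted p below 0.05, beside 0.493% and 11.1% of all tested genes.

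Transcripts reported as targets of Regnase-1 or Roquin, some of which Arid5a is also known to bind, were read from a list of 24, of which 14 were tested. The other 10 (Il6, Il12b, Il2, Tnfrsf4, Nfkbid, Cxcl2, Cxcl3, Lcn2, Csf2 and Csf3) had at most 14 counts in any library and were not tested. With IL-17 in the Arid5a RIP, 4 of the 14 were called higher and 0 lower, and in the IgG RIP 2 and 0. The Arid5a count was 3 with upper-quartile factors, library totals or factors from well-expressed genes, and 2 in the 3 FPKM fits and with the receptor covariate. DESeq2 called 5, 4 higher and 1 (Ctla4) lower, and voom 9, 6 higher and 3 lower. With 1 library left out 3 to 5 were called. The IgG RIP count was 2 to 3 over all fits, and DESeq2 called 3 there (Cxcl1, Ier3 and Nfkbiz). Cxcl1 and Nfkbiz were called in all 30 fits in either RIP.

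Cxcl1, a neutrophil chemokine gene, was at 139, 150, 131 and 114 CPM in Arid5a RIP libraries 1 to 4 with IL-17, against 2.61, 6.2, 8.73 and 8.03 CPM in medium. IgG RIP libraries 2 to 4 held 135, 87.2 and 203 CPM with IL-17, against 12.6, 6.74, 6.5 and 9.93 CPM in medium. The groups lay far apart for both antibodies. The log2 fold was 4.36 ± 0.28 in the Arid5a RIP (adjusted p = 8.42e-14) and 3.89 ± 0.28 in the IgG RIP (adjusted p = 1.44e-11).

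Nfkbiz, which encodes the transcriptional regulator IkB-zeta, averaged 111 ± 12.7 CPM with IL-17 and 28.8 ± 7.42 CPM in medium in the Arid5a RIP, a log2 fold of 1.94 ± 0.20 (adjusted p = 1.78e-08). With IgG it averaged 89.7 ± 17.1 and 33 ± 4.78 CPM, with 1.48 ± 0.21 (adjusted p = 9.55e-05). Ptgs2, which encodes cyclooxygenase-2, averaged 149 ± 28.1 and 37.7 ± 9.48 CPM in the Arid5a RIP, with 1.98 ± 0.30 (adjusted p = 0.000512). Ptgs2 in the IgG RIP was at 1.17 ± 0.32 and was not called (adjusted p = 0.114), where IgG medium replicate 2 held 8.99 CPM and the other 3 medium libraries 51.9 to 74.4 CPM. The IgG libraries with IL-17, at 107.2 to 125.5 CPM, all lay above those in medium, as was found for 4.27% of all tested genes. Tfrc, the transferrin receptor gene, stood at 0.69 ± 0.17 in the Arid5a RIP (adjusted p = 0.0124) and at 0.23 ± 0.18 in the IgG RIP. Tfrc was called in the Arid5a RIP in 21 of 30 fits. It was not called with upper-quartile factors (0.47, adjusted p = 0.0909), library totals (0.43, 0.117), factors from well-expressed genes (0.37, 0.155) or the receptor covariate (0.27, 0.914), nor in the 3 FPKM fits. Leaving out Arid5a IL-17 replicate 2 (0.57, adjusted p = 0.0978) or Arid5a medium replicate 2 (0.65, 0.0522) also ended its call.

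Between the Arid5a and the IgG RIP edgeR called 0 of the 14 targets after IL-17 and 0 in medium. Of all tested genes 0.0673% and 0.628% were called. An unadjusted p of 0.05 was passed by 0 and 2 of the 14, beside 8.95% and 12.8% of all tested genes. After IL-17 Cxcl1 stood at -0.08 ± 0.24, Nfkbiz at 0.30 ± 0.20 and Ptgs2 at 0.38 ± 0.31. The interaction called 0 of the 14, with 1 at an unadjusted p below 0.05, beside 0.976% and 16.3% of all tested genes. Arid5a, whose protein the antibody targets, averaged 19.8 ± 12.1 and 15.4 ± 4.1 CPM in the Arid5a RIP with IL-17 and in medium, and 22.1 ± 2.81 and 15.7 ± 6.11 CPM in the IgG RIP, and its transcript was not called in any comparison.

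**Figure D5:**
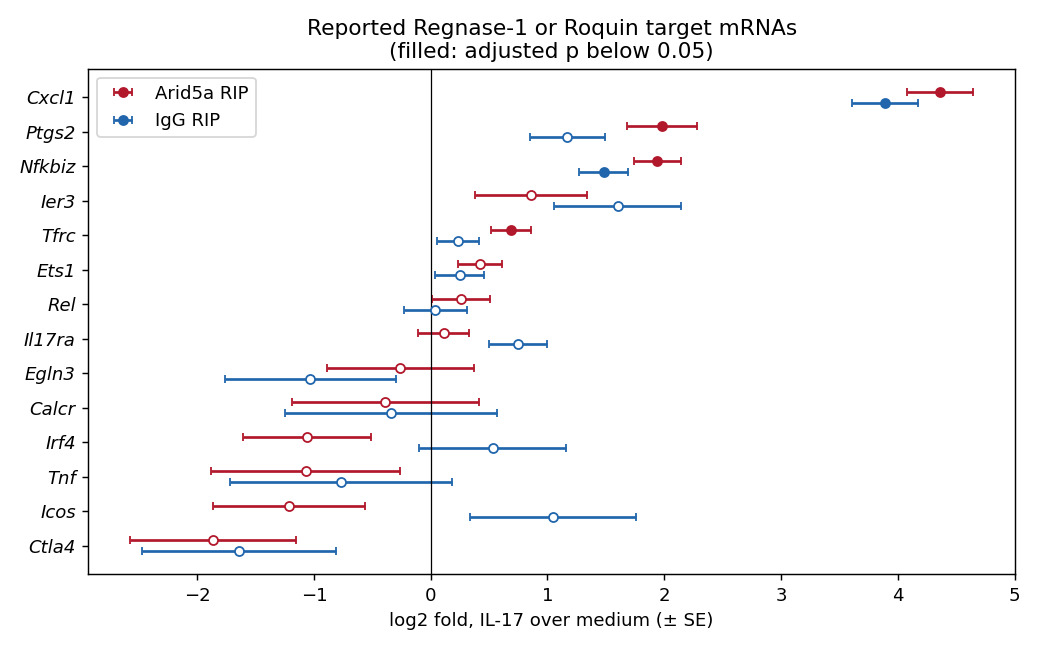
Log2 folds with IL-17 of the 14 tested target transcripts in the Arid5a RIP and in the IgG RIP, with bars of ± 1 SE, a line at 0 and filled points for called transcripts. Cxcl1 stands at 4.36 and 3.89, Ptgs2 at 1.98 and 1.17, and Nfkbiz at 1.94 and 1.48 in the Arid5a and the IgG RIP.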

How the data were processed

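The authors deposited expected counts and FPKM for 25239 genes in 15 libraries. Per the submitters' processing notes, STAR 2.7.9, RSEM 1.3.1, DESeq2 1.36.0, R 4.3.0 and mm10 were used, and the role of each tool is not given. Library preparation followed the SMART-Seq Stranded kit, per the labels' protocols. Totals ran from 939139 to 5713913 counts, and within-group pairs of libraries had a Pearson r of 0.818 to 0.968 across genes.

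Counts were rounded and tested with edgeR 4.0.16 in R 4.3.3. Genes passing filterByExpr (17835) were scaled by TMM, and robust quasi-likelihood fits gave 1 mean for each of the 4 groups. The Benjamini-Hochberg adjustment ran over all tested genes in each of 5 comparisons, and adjusted p below 0.05 was called. Every p given for a gene comes from this fit unless another tool is named. With TMM, 863 genes were called higher and 145 lower with IL-17 in the Arid5a RIP, against 114 and 184 with factors from well-expressed genes. The procedure was tested on simulated data. Alternatives used DESeq2 1.42.0, limma 3.58.1, other scaling factors and filters, 2 covariates and omitted libraries. The limma fits were voom with quality weights for libraries, or log2 FPKM with a pseudocount of 1 or 0.1.

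Same-numbered libraries showed little shared deviation (r of -0.126 to 0.195 over 21 pairs, 1 over 0.1), beside -0.197 to 0.161 for the 63 other pairs. On these values the numbers were not taken as pairs in the main fit, although the labels do not say what they mean. Members and gene lists were chosen with earlier results of these data known. All 7 members, Arid5a, up to 4 called genes per list and comparison by p, and the 3 genes most like each member were to be named. Symbols were matched to RefSeq GRCm38.p6 (25041 of 25239, and 7 of 7 members).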

Additional observations from a re-analysis of the deposited data

Results flagged for a closer look

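The level of Zc3h12c in Arid5a RIP replicate 2 with IL-17, at 39.65 CPM, stood apart from its group, the nearest library being at 31.43 CPM. Its gap was 0.832 of the group's range, just over Dixon's critical value for 4 libraries. It was the 1 library singled out in 21 checks of member levels within a group, and chance gives about 1 in 20. Zc3h12c was not called in any comparison.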

How the results depend on the processing

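In the Arid5a RIP, the count of members called with IL-17 was 3. It was 2, without Rc3h2, with upper-quartile factors (0.43, adjusted p = 0.164), library totals (0.39, 0.194) or factors from well-expressed genes (0.33, 0.234), and 1 with log2(FPKM + 1), log2(FPKM + 0.1), unfiltered log2(FPKM + 1) or the receptor covariate. In the IgG RIP it was 2, and 1 with voom, only the libraries compared, those 3 FPKM fits or without IgG medium 2 and IgG IL-17 4 together. Leaving out 1 library gave 2 to 3 and 1 to 2. With the replicate number as a block the counts were 3 and 1 (Rc3h1 0.72, adjusted p = 0.0745 in the IgG RIP), and the other comparisons kept 0. The block was run because the labels do not say whether the numbers pair the samples, and 2 of 15 libraries were most like a library of their own number. The cause of these changes was not tested. The other 3 comparisons had 0 members called under each alternative run; a fit of only the libraries compared was not run for the interaction, which uses all 15.

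Uncalled folds changed sign, and not all were near 0 in the main fit. With IL-17 in the Arid5a RIP Zc3h12d stood at -0.59 and Zc3h12c at 0.24 there, and the Rc3h2 interaction was 0.22. Arid5a against IgG with IL-17: Zc3h12b 0 (voom), 0.01 (no filter), 0.04 (without the pair) and 0.02 (covariate), -0.1 to 0.03 with 1 library left out, and Zc3h12d 0.02 (block) and 0.28 (covariate), -0.45 to 0.19. In medium: Zc3h12c 0.09 (upper quartile), 0.13 (totals), 0.14 (well-expressed factors), 0.04, 0.03 and 0.04 (FPKM fits) and 0.02 (without the pair), -0.31 to 0.13; Zc3h12d 0 (FPKM + 0.1), -0.35 to 0.08; Rc3h1 -0.03 (voom) and -0.07 (without the pair), -0.06 to 0.1; Rc3h2 -0.01 (without the pair), -0.02 to 0.21; N4bp1 -0.01 (voom) and -0.07 (without the pair), -0.06 to 0.25. IL-17 in the Arid5a RIP: Zc3h12b 0 (voom), 0.01 (no filter and without the pair) and 0.07 (covariate), -0.11 to 0.1; Zc3h12c -0.02 (totals) and -0.07 (well-expressed factors); Zc3h12d 0.01 (covariate); N4bp1 -0.16 to 0. Interaction, in the order upper quartile, totals, well-expressed factors and the FPKM fits: Rc3h1 -0.09, -0.13, -0.17, -0.13, -0.15 and -0.13, Rc3h2 -0.05, -0.1, -0.14, -0.11, -0.13 and -0.11, with -0.26 (covariate), and Zc3h12d -0.18, -0.22, -0.26, -0.1, -0.14 and -0.1, with -0.01 (DESeq2), -0.33 (voom) and -0.3 (without the pair), -0.25 to 0.39. Zc3h12b and Zc3h12d had at most 66 counts in a library. Rc3h1, Rc3h2, N4bp1 and Zc3h12c, whose folds changed sign as well, reached 761, 707, 357 and 174 counts. The part of depth in these changes was not tested.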
